A study of Mus musculus with 7 samples.

Results

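The genes described here encode 10 neuronal regulators of RNA: Elavl2, Elavl3, Elavl4, Nova1, Nova2, Rbfox1, Rbfox2, Rbfox3, Celf4 and Srrm4. They were chosen by name and all 10 were found among the 18331 uniquely named genes of the deposited table. RNA was measured in cells sorted from the arcuate nucleus, a feeding centre at the base of the hypothalamus, of E15.5 mouse embryos. Pomc neurons, which make the precursor of appetite-suppressing peptides, gave 4 libraries, and Npy neurons, which make the appetite-stimulating neuropeptide Y, gave 3 labelled libraries. Neuron type is the only factor in the labels that differs between the groups. The labels give embryonic age but no strain, genotype, litter or treatment. Anything else that went with neuron type cannot be told apart from it. The sources used here do not give the reporter used for sorting or any pooling of embryos. Nothing shows that libraries of a group came from separate animals, and every p-value reflects a spread between libraries that may be technical.

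RNA-binding proteins of neurons decide which exons enter an mRNA, how long the mRNA lasts and where it is translated. Elavl proteins, also called Hu proteins, bind AU-rich and U-rich stretches, stabilise mRNAs of developing neurons and act on splicing. Nova proteins bind clusters of YCAY, Rbfox proteins bind UGCAUG in introns beside alternative exons, and Srrm4 promotes the inclusion of very short exons that neurons use. Celf4 binds mRNAs of neurons and acts on their stability and translation. The deposited values are summed per gene, so they show how much RNA of each regulator was present and not which isoform or which target exon was used.

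Npy replicate 3 was left out because its column is computed from the other Npy columns. In all 15223 genes with a value, and in each of the 10 regulators, it is a whole percentage, between 95 and 105%, of their mean, within 0.0001 percentage points. The comparison therefore rests on 4 Pomc and 2 Npy libraries. Values are in TPM, an abundance scaled by gene length and by the library total, and the number of reads behind them is unknown. Between 12493 and 14656 genes had a value above 0 in the Pomc libraries, against 14933 and 12922 in the Npy libraries, and short RNA genes took 10.8 to 13.2% of the Pomc libraries against 14.1 and 17.3% of the Npy libraries. Pomc itself stood at 352 to 770.3 TPM in the Pomc libraries, against 24.0 and 59.4 TPM in the Npy libraries. Npy stood at 2.11 to 152 TPM in the Pomc libraries, against 728 and 513 TPM in the Npy libraries. The sorted cells carried neuronal RNA. The summed level of 12 pan-neuronal genes, such as Tubb3 and Stmn2, was 6706 to 8889 TPM in the Pomc libraries. It was 5808 and 5460 TPM in the Npy libraries, so the groups did not overlap in it. In 4 of the 12, Tubb3 and Stmn2 among them, every Pomc library lay above both Npy libraries, as in 8.05% of all tested genes. Snap25 and Syt1 ran the other way, with means of 172 and 237 TPM in the Pomc libraries against 207 and 294 TPM. The sum therefore does not stand for each gene in it.

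All 10 regulators were present in every library, and their levels spanned a wide range. Elavl3 was the most abundant, with a median of 385 TPM over the 6 libraries, followed by Rbfox2 (264 TPM), Elavl4 (206 TPM), Celf4 (189 TPM) and Nova2 (175 TPM). Srrm4 (90.6 TPM), Rbfox1 (65.6 TPM), Nova1 (52.1 TPM), Elavl2 (31.4 TPM) and Rbfox3 (31.1 TPM) were lower. Elavl3 exceeded Rbfox2 in 5 of 6 libraries, with overlapping ranges. The ranges were apart between Rbfox2 and Elavl4 and between Nova2 and Srrm4. Among Elavl4, Celf4 and Nova2, neighbours differed by less than their spread (mean log2 difference -0.11 with an SD of 0.44 for Elavl4 minus Celf4, and 0.07 with an SD of 0.37 for Celf4 minus Nova2). The same held for Srrm4 and Rbfox1 (1.05, SD 1.51), for Rbfox1 and Nova1 (-0.50, SD 1.85, with the mean against the order of the medians) and for Elavl2 and Rbfox3 (0.12, SD 0.49). Elavl3 lay above 94.8 to 98.2% of tested genes, depending on the library, and Rbfox1 above 16.5 to 86.5%.

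**Figure D1:**
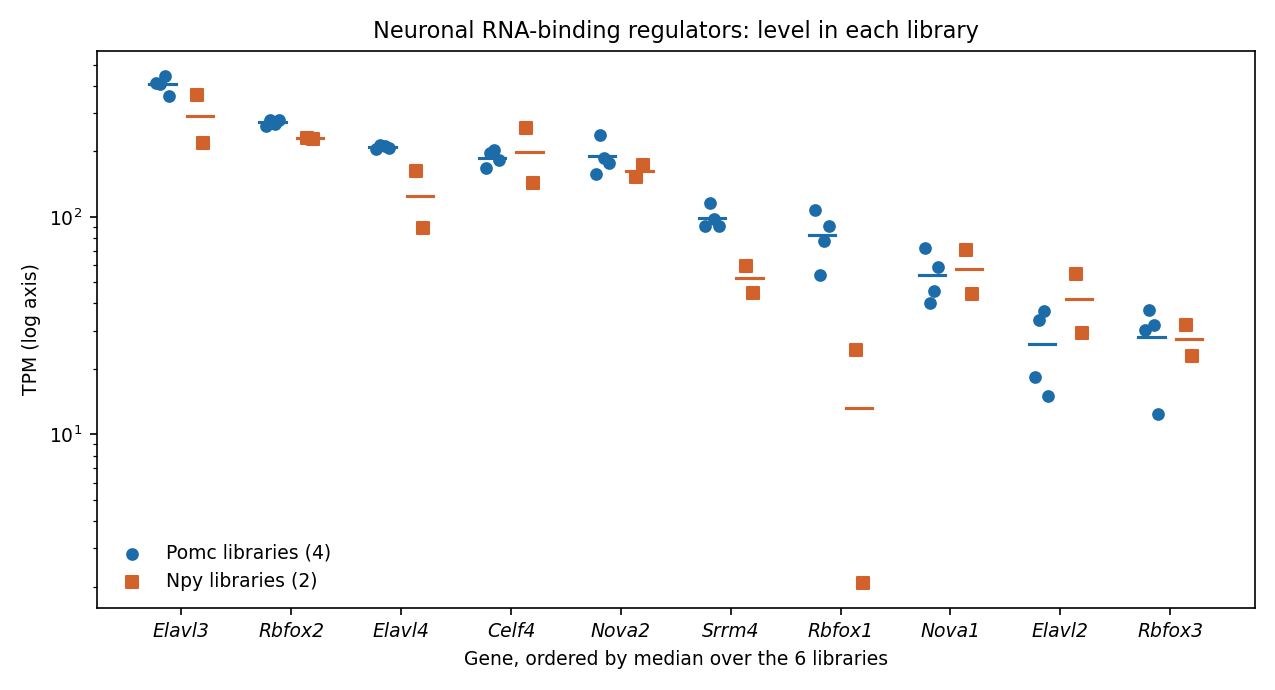
Level of each regulator in TPM on a log axis, genes ordered by their median; circles are the 4 Pomc libraries, squares the 2 Npy libraries, and bars the group means. The groups are apart for Rbfox2, Elavl4, Srrm4 and Rbfox1, with Rbfox1 at 53.9 to 108 TPM in Pomc libraries against 24.4 and 2.09 TPM in Npy libraries.

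None of the 10 regulators passed the threshold between Pomc and Npy neurons. The test was limma on log2(TPM + 1) over 13845 genes with at least 1 TPM in at least 2 libraries, two-sided, at a Benjamini-Hochberg adjusted p of 0.05, and 0.412% of all tested genes passed it (0.289% higher and 0.123% lower in Pomc neurons). All 10 regulators met the filter. By limma at an unadjusted p under 0.05, 4 of the 10 were higher in Pomc libraries (Rbfox1, Srrm4, Elavl4 and Elavl3) and 0 were lower, against 4.08% and 3.28% of all tested genes (7.36% in either direction). In 4 regulators (Rbfox1, Rbfox2, Srrm4 and Elavl4) every Pomc library lay above both Npy libraries, as in 8.05% of all tested genes; in 0 of the 10 did both Npy libraries lie above every Pomc library, as in 7.86%. The median log2 fold change of the 10 was 0.23, beside 0.02 for all tested genes. In bulk RNA from sorted cells, fewer cells of a type and less RNA per cell cannot be told apart.

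**Figure D2:**
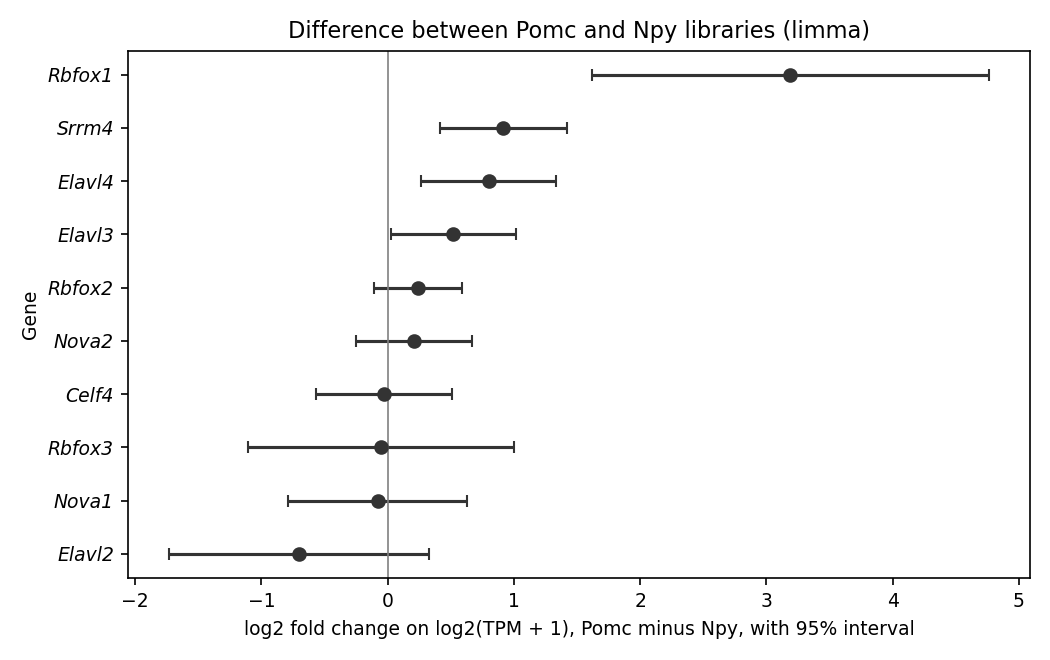
Log2 fold change of each regulator, Pomc minus Npy on log2(TPM + 1), with its 95% interval from limma. The interval lies above 0 for Rbfox1, Srrm4, Elavl4 and Elavl3 before adjustment for the genes tested, and it covers 0 for the other 6.

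Rbfox1 showed the largest difference of the 10. It encodes a neuronal splicing factor that acts mainly on synaptic and channel transcripts, and the gene spans 1526172 bp on chromosome 16 (5885355 to 7411526, plus strand, GENCODE M21 on GRCm38). It stood at 108, 53.9, 77.2 and 90.5 TPM in Pomc replicates 1 to 4, against 24.4 and 2.09 TPM in Npy replicates 1 and 2. The groups did not overlap. On log2(TPM + 1), though not in TPM, the Npy libraries differed from each other more than the Pomc libraries did. The means were 82.4 ± 22.8 TPM (SD, n = 4) and 13.3 TPM (n = 2), a 6.22-fold difference. On log2(TPM + 1) the fold change was 3.19 ± 0.70 (SE, 95% interval 1.62 to 4.76), with a limma adjusted p of 0.153 (unadjusted 0.00126). Its size depends on which Npy library is used. The log2 fold change was 1.67 without Npy replicate 2 and 4.71 without Npy replicate 1. With 2 Npy libraries, leaving out either moves the value equally far, so these fits cannot single out 1 of them.

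The 2 windows below show where RefSeq (GRCm38.p6) places the starts of Rbfox1, the regulator that differed most. They lie 1185 kb apart, and the table has 1 row for the gene. Each runs from 250 bases before to 50 bases after a start, on the plus strand, at chr16:5884543-5884842 (upstream) and chr16:7069585-7069884 (downstream). Capitals mark CAGCTG, an E-box, the kind of site bound by helix-loop-helix factors.
Rbfox1 upstream start: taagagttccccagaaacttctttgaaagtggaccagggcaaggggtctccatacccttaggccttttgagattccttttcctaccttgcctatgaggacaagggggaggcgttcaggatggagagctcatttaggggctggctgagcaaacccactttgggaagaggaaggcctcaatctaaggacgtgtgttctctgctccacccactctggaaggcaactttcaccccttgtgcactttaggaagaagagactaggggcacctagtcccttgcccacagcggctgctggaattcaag
Rbfox1 downstream start: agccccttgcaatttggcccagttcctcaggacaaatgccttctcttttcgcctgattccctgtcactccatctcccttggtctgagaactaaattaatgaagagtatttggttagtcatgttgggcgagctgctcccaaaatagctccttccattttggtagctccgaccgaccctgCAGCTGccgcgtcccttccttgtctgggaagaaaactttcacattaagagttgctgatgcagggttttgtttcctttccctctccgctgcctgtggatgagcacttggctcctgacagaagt
The upstream window holds 0 matches to CAGCTG and 3 CpG dinucleotides, the downstream window 1 match and 7 CpG dinucleotides. CAGCTG occurs in 16.3% of all 32851 windows of this length.

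Rbfox2, the most widely expressed member of the family, was steady over all libraries. It had 261, 278, 268 and 279 TPM in Pomc replicates 1 to 4, against 231 and 227 TPM in Npy replicates 1 and 2. The groups did not overlap, yet the difference was small, with a log2 fold change of 0.24 ± 0.15 (SE, 95% interval -0.10 to 0.59, limma adjusted p = 0.807). Scaled to the same pan-neuronal sum it was -0.14, where the median of all tested genes was -0.33. Rbfox3, which encodes NeuN, a nuclear marker of maturing neurons, had 30.3, 37.4, 31.97 and 12.4 TPM in Pomc replicates 1 to 4, against 31.9 and 22.9 TPM in Npy replicates 1 and 2. The groups overlapped, with Pomc replicate 4 lowest of all (log2 fold change -0.05 ± 0.47, 95% interval -1.11 to 0.998, limma adjusted p = 0.987).

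Within the Rbfox family the make-up of the total differed between the libraries of both groups. Rbfox1 took 27.0, 14.6, 20.5 and 23.7% of the summed Rbfox TPM in Pomc replicates 1 to 4, against 8.51 and 0.827% in Npy replicates 1 and 2. Rbfox2 took 65.4 to 75.2% in the Pomc libraries, against 80.4 and 90.1% in the Npy libraries. The summed level was 382 ± 12.9 TPM (SD, n = 4) in the Pomc libraries, against 287 and 252 TPM in the Npy libraries. These shares are ratios within a library, so they do not depend on how libraries are scaled to each other.

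Srrm4, which promotes neuronal microexons and the splicing of the repressor gene Rest into its neuronal form, was the second regulator that stood apart. It lies on chromosome 5 (116439275 to 116591817, minus strand). It had 90.5, 115.5, 97.9 and 90.7 TPM in Pomc replicates 1 to 4, against 59.5 and 44.6 TPM in Npy replicates 1 and 2. Every Pomc library was higher than both Npy libraries, with means of 98.7 ± 11.8 TPM (SD, n = 4) and 52.1 TPM (n = 2), a 1.90-fold difference. The log2 fold change of 0.92 ± 0.22 (SE, 95% interval 0.41 to 1.42) did not pass over all genes (limma adjusted p = 0.227, unadjusted 0.00251). An antisense gene, Srrm4os, shares 68 exonic bases with it and stayed under 1 TPM in every library.

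The single RefSeq start of Srrm4 is shown for comparison with those of Rbfox1, at chr5:116591768-116592067 on the minus strand.
Srrm4 start: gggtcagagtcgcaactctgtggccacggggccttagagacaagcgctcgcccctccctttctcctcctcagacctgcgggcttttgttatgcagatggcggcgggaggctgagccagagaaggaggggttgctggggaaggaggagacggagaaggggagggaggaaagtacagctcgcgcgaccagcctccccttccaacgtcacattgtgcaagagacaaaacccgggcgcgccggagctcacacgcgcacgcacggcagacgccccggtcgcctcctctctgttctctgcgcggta
This window holds 0 matches to CAGCTG and 25 CpG dinucleotides. Start windows were found for 8 of the 10 regulators, 17 windows in all; Rbfox2 and Celf4 had no entry. On both strands, CAGCTG was in 8 of the 17 windows (16.3% of all windows) and CANNTG, which includes every CAGCTG, in 14 (72.3%). CCAAT was in 10 (37.4%), GGGCGG in 7 (35.7%), TATAAA in 1 (13.6%) and GGACAG in 1 (22.2%). TTCAGCACC, part of the site bound by the Rest protein, was in 0 (0.371%). Several of the windows belong to the same gene, so they are not independent.

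Srrm3, the relative of Srrm4 with a similar role in microexons, did not run with it. It had 56.2, 72.8, 81.8 and 32.9 TPM in Pomc replicates 1 to 4, against 83.1 and 53.4 TPM in Npy replicates 1 and 2 (limma adjusted p = 0.93). The ratio of Srrm4 to Srrm3 was 1.61, 1.59, 1.20 and 2.76 in the Pomc libraries, against 0.716 and 0.835 in the Npy libraries. Srrm4 thus exceeded Srrm3 in every Pomc library and in neither Npy library. Rest, which represses neuronal genes in other cells, was low in both groups, at 0.566, 5.51, 1.42 and 6.10 TPM in Pomc replicates 1 to 4, against 7.73 and 2.54 TPM in Npy replicates 1 and 2 (limma adjusted p = 0.908).

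The Elavl genes did not all run the same way. Elavl4, which encodes HuD, a stabiliser of growth-associated mRNAs in axon-forming neurons (chromosome 4, 110203722 to 110351909, minus strand), had 204, 213, 212 and 208 TPM in Pomc replicates 1 to 4, against 162 and 88.4 TPM in Npy replicates 1 and 2. The Pomc libraries were close together and all above the Npy libraries. The means were 209 ± 4.32 TPM (SD, n = 4) and 125 TPM (n = 2), with a log2 fold change of 0.80 ± 0.24 (SE, 95% interval 0.27 to 1.33, limma adjusted p = 0.38, unadjusted 0.00791). The log2 fold change was 0.37 without Npy replicate 2 and 1.23 without Npy replicate 1, with limma adjusted p of 0.999 and 0.0559.

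Elavl3, which encodes HuC, an early and lasting marker of postmitotic neurons, had 413, 407, 443 and 360.2 TPM in Pomc replicates 1 to 4, against 363 and 219 TPM in Npy replicates 1 and 2. Npy replicate 1 lay within the Pomc range and Npy replicate 2 below it (log2 fold change 0.52 ± 0.22, 95% interval 0.03 to 1.01, limma adjusted p = 0.65). Elavl2, which encodes HuB, had 18.4, 33.5, 36.9 and 15.1 TPM in Pomc replicates 1 to 4, against 54.7 and 29.3 TPM in Npy replicates 1 and 2. The groups overlapped, although the highest value was in Npy replicate 1 (log2 fold change -0.70 ± 0.46, 95% interval -1.73 to 0.33, limma adjusted p = 0.808).

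As shares of the summed level of these 3 genes, Elavl2 took 2.90, 5.13, 5.33 and 2.59% in Pomc replicates 1 to 4, against 9.42 and 8.70% in Npy replicates 1 and 2. Elavl4 took 30.6 to 35.6% in the Pomc libraries, against 27.9 and 26.3% in the Npy libraries, and Elavl3 took 61.8 to 65.0% against 62.6 and 65.0%. The Elavl2 and Elavl4 shares did not overlap between the groups. How often shares of related genes separate the groups over the whole table was not counted. The shares of these 3 genes add up to the whole in each library. With Elavl3 nearly level, a larger Elavl2 share must go with a smaller Elavl4 share, so their opposite directions are not a separate result. The Elavl genes are close relatives, and the sources used here do not say how reads shared between them were counted. Elavl1, the family member found in most cell types, had 86.5 to 109 TPM in the Pomc libraries and 90.8 and 82.9 TPM in the Npy libraries (limma adjusted p = 0.862).

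**Figure D3:**
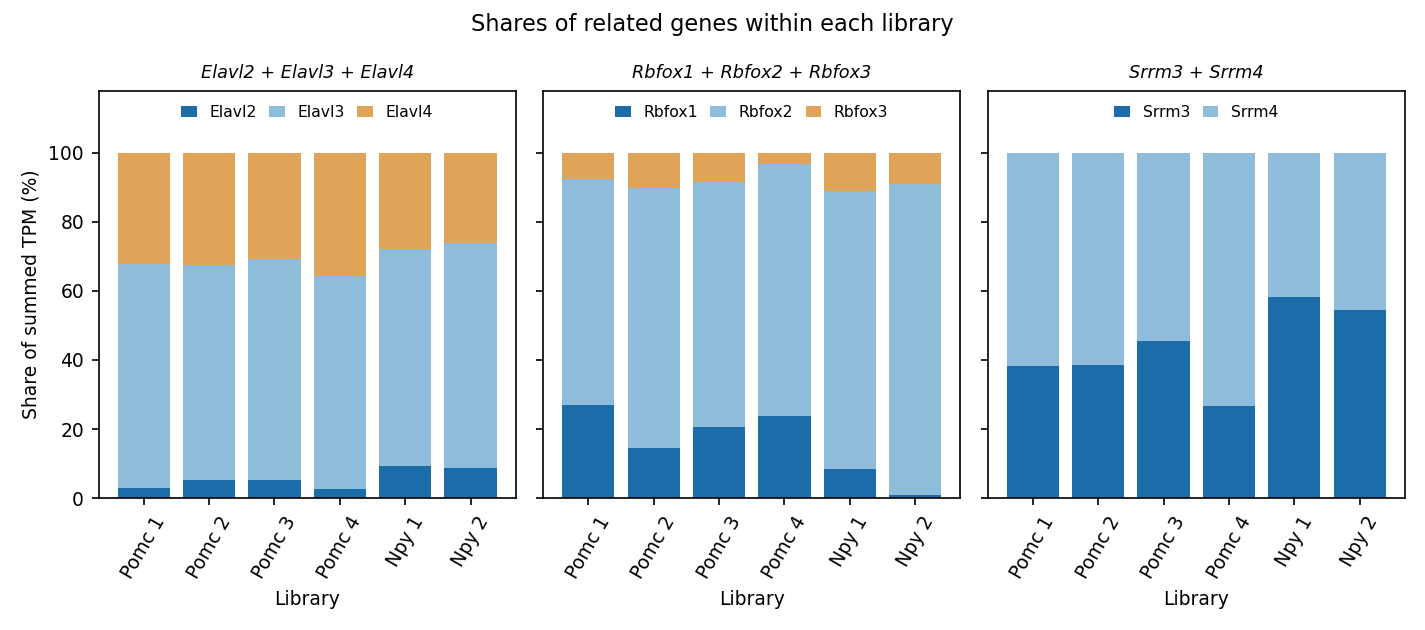
Share of the summed TPM taken by each gene within each library, for the Elavl genes (left), the Rbfox genes (centre) and the Srrm3 and Srrm4 pair (right); bars are single libraries, Pomc replicates 1 to 4 and then Npy replicates 1 and 2. Elavl2 and Srrm3 took larger shares in both Npy libraries than in any Pomc library, and Rbfox1 took smaller ones. Shares within the Nova genes, the Celf genes and the Ptbp1 and Ptbp2 pair overlapped between the groups and are not drawn.

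A microRNA gene inside Elavl2 showed a clearer difference than Elavl2 itself. Mir6402 lies on the same strand as Elavl2, at chr4:91373284-91373363, and shares 0 bases with its annotated exons. It was listed at 0 in all 4 Pomc libraries and at 58.6 and 29.99 TPM in Npy replicates 1 and 2 (limma adjusted p = 0.0073). In the Npy libraries it was at about the level of Elavl2 in the same library (54.7 and 29.3 TPM). The gene was picked out after its values were seen. Its annotated hairpin is 80 bases long, so few reads can give such a TPM, and the number of reads behind it is unknown. The mature sequence from RefSeq (GRCm38.p6), with the seed (bases 2 to 8) in capitals, identifies the product annotated there.
Mir6402: gAGCAGUUuucccaggaacccgc

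Nova1 and Nova2, which control alternative exons of synaptic proteins and axon guidance receptors, did not separate the groups. Nova2, the form prevalent in cortex, had 158, 239, 185 and 177 TPM in Pomc replicates 1 to 4, against 152 and 173 TPM in Npy replicates 1 and 2. The groups overlapped (log2 fold change 0.21 ± 0.20, 95% interval -0.25 to 0.67, limma adjusted p = 0.862). Scaled to the pan-neuronal sum the difference of Nova2 was -0.17, where the median of all tested genes was -0.33. It shares 2652 exonic bases with an antisense gene, Gm26821. Nova1, the form first known from hindbrain and spinal cord, had 72.1, 40.1, 45.6 and 58.6 TPM in Pomc replicates 1 to 4, against 70.6 and 44.1 TPM in Npy replicates 1 and 2 (log2 fold change -0.08 ± 0.32, 95% interval -0.79 to 0.63, limma adjusted p = 0.97). Nova2 exceeded Nova1 in every library, by 2.19 to 5.95 times in the Pomc libraries and 2.15 and 3.92 times in the Npy libraries. Among the 4 Pomc libraries the Nova1 level was highest in replicate 1, where Nova2 was lowest, and lowest in replicate 2, where Nova2 was highest.

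Celf4 had 168, 196, 202 and 182 TPM in Pomc replicates 1 to 4, against 255 and 142 TPM in Npy replicates 1 and 2. The Npy libraries held both the highest and the lowest value (log2 fold change -0.03 ± 0.24, 95% interval -0.57 to 0.51, limma adjusted p = 0.987). Its relatives gave a larger total. Celf3 had 341 to 567 TPM in the Pomc libraries against 438 and 550.0 TPM in the Npy libraries, and Celf5 had 351 to 408 TPM against 429 and 431 TPM. Celf6, at 142 to 176 TPM in the Pomc libraries, was below both Npy libraries (186 and 209 TPM, log2 fold change -0.36 ± 0.18, limma adjusted p = 0.737). Celf5 was also lower in every Pomc library than in both Npy libraries, as were 7.86% of all tested genes. Celf1 had 94.5 to 128 TPM against 117 and 139 TPM, and Celf2 had 113 to 131 TPM against 143 and 90.5 TPM (limma adjusted p = 0.882 and 0.945). Celf4 made up 12.9 to 13.8% of the summed Celf level in the Pomc libraries, against 16.2 and 9.10% in the Npy libraries.

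The 10 regulators also differed between the Npy libraries. In 9 of the 10, all but Nova2, Npy replicate 2 was lower than Npy replicate 1, as in 58.7% of all tested genes, and the median log2 difference was -0.70 beside -0.16 for all tested genes. The summed level of the 10 was 1523, 1613, 1600.3 and 1473 TPM in Pomc replicates 1 to 4, against 1404 and 992 TPM in Npy replicates 1 and 2. Set against the pan-neuronal sum of the same library, the regulators amounted to 171 to 241 TPM per 1000 TPM in the Pomc libraries, against 242 and 182 TPM in the Npy libraries, so on this scale the groups overlapped. Per 1000 TPM of pan-neuronal RNA, Rbfox1 was the only regulator of the 10 whose groups did not overlap, at 8.04 to 12.6 TPM in the Pomc libraries against 4.21 and 0.383 TPM in the Npy libraries. On this scale 2.66% of all tested genes lay higher in every Pomc library than in both Npy libraries, and 22.3% lay lower. Elavl4 (22.9 to 31.8 against 27.9 and 16.2 TPM), Srrm4 (10.2 to 17.2 against 10.3 and 8.17 TPM) and Rbfox2 (29.4 to 41.4 against 39.7 and 41.7 TPM) overlapped on this scale.

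Markers of oligodendrocyte lineage cells moved with the groups. Of 8 oligodendrocyte lineage genes, 6 were lower in Pomc than in Npy neurons by limma, with a summed level of 61.8 to 84.8 TPM in the Pomc libraries against 285 and 247 TPM in the Npy libraries; Olig2 and Cspg4 were listed at 0 in every Pomc library. Of 8 tested genes of radial glia and astrocytes 0 passed by limma (2 at an unadjusted p under 0.05, both lower in Pomc libraries), and their sum of 292 to 659 TPM in the Pomc libraries overlapped the 635 and 421 TPM of the Npy libraries. Among them, picked out after their values were seen, Fabp7 had 1.61 to 61.6 TPM in Pomc libraries against 323 and 176 TPM in Npy libraries, and Nes and Hes5 were also lower in every Pomc library. Of the 8, 5 had log2 fold changes below 0 and 3 above 0, namely Rax, Aldh1l1 and Vim. Rax had 0 to 16.4 TPM in Pomc libraries against 1.92 and 0 TPM in Npy libraries. Vim had 201 to 529.6 TPM against 206 and 155 TPM. It made up most of the summed level in each Pomc library, with 529.6 TPM in Pomc replicate 4, and the overlap of the sums rests on it. Of 10 cell division genes 0 passed by limma (5 unadjusted, all lower in Pomc libraries). Of these 10, 9 had log2 fold changes below 0, as had 48.7% of all tested genes, with sums of 42.1 to 104 TPM in Pomc libraries against 163 and 125 TPM in Npy libraries. In Pomc replicate 4, the library with the lowest Rbfox3 and Elavl2, the 7 microglia genes summed to 43.0 TPM, against at most 2.27 TPM in the other Pomc libraries, and the radial glia and astrocyte genes to 659 TPM, against at most 350.3 TPM. That microglia sum was made up of P2ry12 (22.7 TPM), Csf1r (13.1 TPM), Cx3cr1 (6.55 TPM) and C1qb (0.68 TPM), while C1qa and Tmem119 were listed at 0 in all 6 libraries. C1qb was at most 0.68 TPM in the Pomc libraries, against 2.71 and 8.33 TPM in the Npy libraries (limma adjusted p = 0.375). The part of these markers in the values of the regulators was not tested.

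Among 22 other splicing regulators, 20 were tested, 0 were higher in Pomc neurons and 1, Mbnl3, was lower. Mbnl3 belongs to the muscleblind family of splicing factors and had 1.60, 1.56, 0.961 and 1.38 TPM in Pomc replicates 1 to 4, against 37.4 and 20.9 TPM in Npy replicates 1 and 2. The groups were far apart, with a log2 fold change of -3.62 ± 0.60 (SE) and a limma adjusted p of 0.0461. The call ended without any 1 of the 6 libraries (adjusted p = 0.061 to 0.336) and with a pseudocount of 0.1 (0.131) or no filter (0.108), while the log2 fold change stayed between -4.27 and -2.38 in the settings that tested it. The oligodendrocyte lineage genes moved in the same direction (285 and 247 TPM in the Npy libraries, above), and their part in the Mbnl3 difference was not tested.

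The relatives Mbnl1 and Mbnl2 overlapped between the groups, at 15.7 to 25.5 TPM in Pomc libraries against 28.0 and 16.3 TPM in Npy libraries for Mbnl1, and at 25.8 to 49.5 TPM against 40.4 and 29.6 TPM for Mbnl2. The polypyrimidine tract proteins mark the passage from progenitor to neuron: Ptbp1 holds back neuronal exons in progenitors and Ptbp2 takes its place in young neurons. Ptbp2 had 240 to 356 TPM in Pomc libraries against 316 and 241 TPM in Npy libraries, and Ptbp1 had 25.4 to 75.3 TPM against 55.2 and 65.0 TPM. Ptbp2 exceeded Ptbp1 by 3.46 to 12.4 times in Pomc libraries and by 5.73 and 3.70 times in Npy libraries, with overlapping groups. Ptbp3 was above both Npy libraries in every Pomc library, at 19.7 to 42.6 TPM against 17.2 and 9.47 TPM (log2 fold change 1.09 ± 0.43, limma adjusted p = 0.61). Qk, a splicing factor most known from glia, was lower in every Pomc library, at 17.3 to 39.4 TPM against 50.5 and 46.3 TPM (-0.65 ± 0.37, limma adjusted p = 0.791). The list had a median log2 fold change of -0.13, beside 0.02 for all tested genes. Khdrbs3, a STAR-family splicing factor, had 490.3 to 732 TPM in Pomc libraries against 577 and 547 TPM in Npy libraries (0.12 ± 0.20, limma adjusted p = 0.919). Esrp1 and Esrp2, splicing factors of epithelia, were listed at or near 0 and missed the filter.

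**Figure D4:**
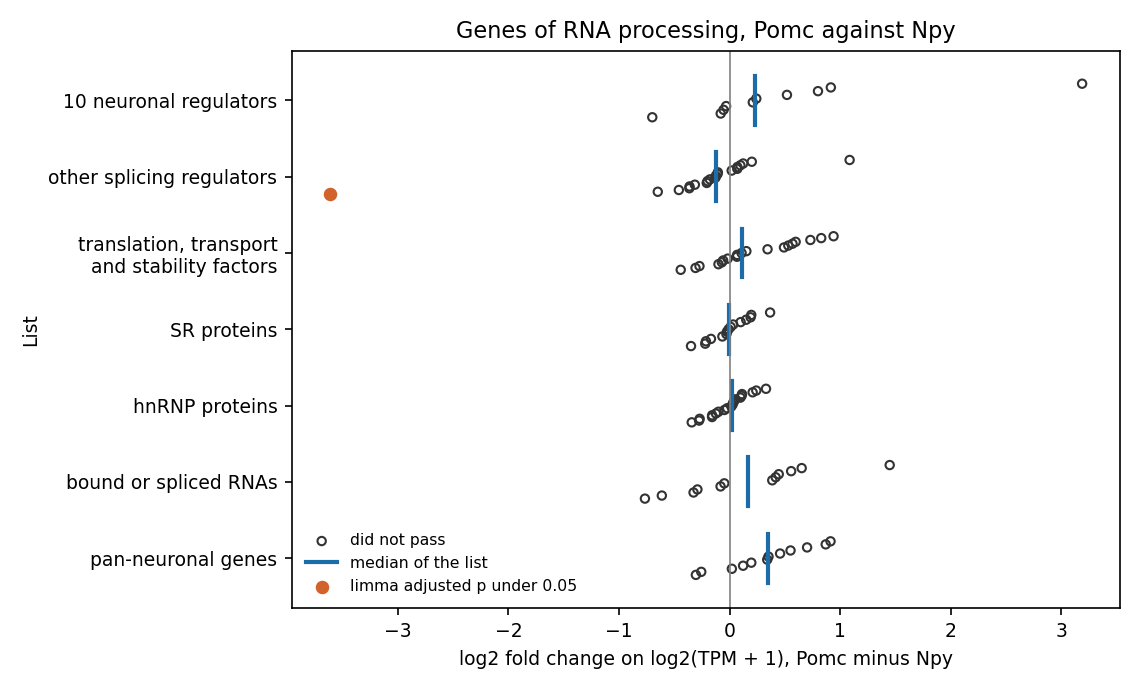
Log2 fold change of each tested gene, Pomc minus Npy on log2(TPM + 1), by list; open circles did not pass, the filled circle is Mbnl3 (-3.62), and bars are list medians. Rbfox1 (3.19) lies farthest to the right, and the SR and hnRNP proteins lie within -0.35 to 0.37.

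General splicing factors were nearly level between the groups. Of 15 SR proteins, which bind exons and recruit the splicing machinery, 0 passed by limma (0 also at an unadjusted p under 0.05), with log2 fold changes from -0.35 for Srsf4 to 0.37 for Srrm2. The next were Srsf1 (0.20 ± 0.22) and Srsf10 (0.19 ± 0.23) on the Pomc side and Srsf2 (-0.22 ± 0.17) and Srsf5 (-0.21 ± 0.19) on the Npy side. Of 20 hnRNP genes in the table, 0 passed (0 unadjusted), from -0.34 for Hnrnph3 to 0.33 for Hnrnpll, with Hnrnpf (0.24 ± 0.16), Hnrnpu (0.21 ± 0.19), Hnrnpdl (-0.28 ± 0.20) and Hnrnpul1 (-0.27 ± 0.20) between them. The median log2 fold changes were -0.01 and 0.02.

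Of 20 factors of RNA translation, transport and stability, 19 were tested and 0 passed by limma (4 unadjusted, all higher in Pomc libraries); the median log2 fold change was 0.11. Cpeb2, a translational regulator, had 41.9 to 62.5 TPM in Pomc libraries against 34.6 and 24.9 TPM in Npy libraries (log2 fold change 0.83 ± 0.28, limma adjusted p = 0.508). Stau2, which carries mRNAs into dendrites, had 64.7 to 93.8 TPM against 68.1 and 22.1 TPM (0.94 ± 0.40, limma adjusted p = 0.65). Msi2, a Musashi protein of neural progenitors and their progeny, had 58.8 to 89.8 TPM against 54.2 and 49.2 TPM (0.57 ± 0.24, limma adjusted p = 0.651). On the Npy side, Igf2bp2 had a log2 fold change of -0.31 ± 0.38 and Cpeb1 one of -0.44 ± 0.61 (limma adjusted p = 0.893 and 0.908).

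RNAs that the regulators are known to bind or splice did not pass either, 0 of 12 by limma (2 unadjusted, higher in Pomc libraries), with a median log2 fold change of 0.17. Glra2, a glycine receptor subunit whose exons Nova controls, had 29.9, 16.7, 19.9 and 20.4 TPM in Pomc replicates 1 to 4, against 9.53 and 5.31 TPM in Npy replicates 1 and 2. The groups did not overlap (log2 fold change 1.45 ± 0.46, limma adjusted p = 0.441). Nrxn3, a presynaptic adhesion gene whose transcripts are spliced into many forms, had 29.8 to 76.2 TPM in Pomc libraries against 114 and 57.8 TPM in Npy libraries (-0.77 ± 0.41, limma adjusted p = 0.773). Dlg4, a postsynaptic scaffold, had 279 to 396 TPM against 406 and 436 TPM (-0.33 ± 0.18, limma adjusted p = 0.786).

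The genes most like Rbfox1, Elavl2 and Rbfox3, the 3 regulators with the largest spread over the 6 libraries, were found by Pearson's r of log2(TPM + 1) over those libraries, as a description. Many genes reach such values with 6 points: 130, 33 and 141 genes lay above an r of 0.95 with these 3. Closest to Rbfox1 were Txndc5 (r = 0.997), Fam78b (0.996) and Mdga2 (0.996). Mdga2, which encodes a synaptic adhesion protein, had 31.4, 26.4, 30.1 and 30.2 TPM in Pomc replicates 1 to 4, against 16.5 and 4.85 TPM in Npy replicates 1 and 2, low in the same library as Rbfox1. Closest to Elavl2 were Ccdc176 (0.988), Sgms1 (0.987) and Pbdc1 (0.983), and closest to Rbfox3 were Sema4a (0.994), Mospd1 (0.993) and Zfp334 (0.993). Among the regulators themselves, Rbfox1 and Elavl4 were most alike (r = 0.976 over 6 libraries), and Nova1 and Nova2 ran most against each other (r = -0.82). For Rbfox1 and Elavl4 the points share the difference between the groups and the low Npy replicate 2. Elavl2 and Rbfox3 were instead lowest in Pomc replicate 4, at 15.1 and 12.4 TPM.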

How the data were processed

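The authors deposited 1 table of 18335 rows with a column for each of 7 samples. Its header names no unit. The deposited values were taken as TPM, because the 6 columns used sum to 999932 to 999960 over unique symbols. Libraries were made from 1 ng of total RNA with a stranded kit, per the labels' protocols. HISAT2, edgeR 3.8 and the mm10 build are named in the submitters' processing notes, without saying what each was used for. The sources used here do not give the counting tool, annotation or length definition, so overlapping and closely related genes are uncertain. TPM keeps no depth. The 4 rows of 2 repeated symbols were left out.

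limma 3.58.1 in R 4.3.3 was fitted with a trended prior variance to log2(TPM + 1) of 4 Pomc and 2 Npy libraries, a scale that understates changes of low genes. It was tested on simulated data. Alternatives were other pseudocounts, filters, scalings and prior variance, a replicate block, all 7 columns and each library left out. Gene positions are from GENCODE M21. The regulators and lists were chosen with earlier results of these data known. Genes outside the 10 regulators were named where they passed or had 1 of the 3 smallest p in each direction of a list, or by name (Elavl1, the Celf genes, Ptbp1, Ptbp2, Srrm3 and Rest); Mbnl1, Mbnl2 and Mir6402 were added after their values were seen. Of the hnRNP list, 20 of 22 listed symbols were in the table. Some genes that this rule names are not reported here.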

Additional observations from a re-analysis of the deposited data

Results flagged for a closer look

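In each gene named by rule, the Pomc library farthest from the others was set against the range of the 4 Pomc libraries. Of 49 genes, 2 stood out, where chance gives about 1 in 20. None of the 10 neuronal regulators was among them. Cpeb1, a translational regulator, was highest in Pomc replicate 1 at 7.23 TPM, with 3.27 to 3.92 TPM elsewhere in that group. Hnrnpu was lowest in the same library at 697 TPM, with 845 to 874 TPM elsewhere in that group. Groups of 2 Npy libraries are too small for this test.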

How the results depend on the processing

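The fit with all 7 columns counts Npy replicate 3, which is computed from the other Npy columns, as a library. Its p-values are therefore too small, and its calls are given only to show the effect of that column. The count of genes called over the whole table was 57. It was 37 with a pseudocount of 0.1, 33 without a filter on low values, 12 with a replicate block and 205 with all 7 columns, and it ranged from 22 to 69 with 1 library left out. Scaled to the pan-neuronal sum, an alternative chosen after seeing the data, 26 genes were higher and 33 lower in Pomc neurons, against 40 and 17 as deposited; the median log2 fold change of all tested genes was then -0.33, beside 0.02. The count of regulators called was 0 except with all 7 columns (1, Srrm4, log2 0.91, adjusted p = 0.0349) and without Npy replicate 1 (1, Rbfox1), a range of 0 to 1 with 1 library left out. Mbnl3 was the 1 other splicing regulator called; the count was 0 with a pseudocount of 0.1, without a filter, with a filter of 5 TPM in 3 libraries (which Mbnl3 missed), with the replicate block and with any 1 library left out (0 to 0). Directions of small differences changed: Rbfox3 was 0.31 with the replicate block and ran from -0.28 to 0.28 with 1 library left out, Nova1 from -0.41 to 0.25 and Celf4 from -0.45 to 0.39, and scaled to the pan-neuronal sum Nova2 was -0.17 and Rbfox2 -0.14. On that last scale Nova2 and Rbfox2 stayed above the median of all tested genes (-0.33). The cause of the other changes was not tested. Replicate numbers are shared by the groups in the labels. Deviations of same-numbered libraries from their group means gave r = -0.04 for number 1 and -0.03 for number 2. With 2 Npy libraries these deviations mirror each other, so the values cannot decide whether same-numbered libraries belong together. Whether the block is warranted is therefore unknown. With 1 Npy library left, that library is assumed to vary like the Pomc group. The read depth is unknown, which limits all low values, among them Rbfox1 in Npy replicate 2, Rest, Mbnl3 in the Pomc libraries and Mir6402.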
